A study of Homo sapiens with 4 samples.

Results

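The comparison described here sets Caco-2 cells on Transwell inserts against Caco-2 cells on plates while both were in the bile acid cholate. It covers every probe set with 1 annotated gene symbol whose mean log2 intensity over the 4 arrays of the study was at or above the 40th percentile of all probe sets, a floor of 4.84. That rule kept 13613 of the 19460 probe sets with 1 symbol, which stand for 12900 of 18417 genes, and it used no difference between supports. The value of each gene is the log2 intensity on the Transwell array in cholate minus that on the plate array in cholate, so 1 log2 unit is a doubling. At the floor, CYP2E1 lay just inside at a mean of 4.85 and CD164L2 just outside at 4.84.

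Caco-2 is an established human colorectal adenocarcinoma line that becomes enterocyte-like after confluence. The study profiled it on regular 6-well plates (34.8 mm across) and on collagen-coated Transwell inserts (6.5 mm across), with vehicle or 2 mM sodium cholate for 3 h, which is 4 conditions with 1 array each. Each array held RNA pooled from 3 samples, so a difference between 2 arrays carries neither a replicate nor a p-value, and pooling hid how cultures vary. Cholate went into the apical compartment on inserts and onto the cells on plates, in a HEPES-buffered salt solution lacking calcium. The sources used here do not give the composition of the vehicle. The labels give 21 days of differentiation for all conditions, while the growth protocol gives 14 days for plates and 14 to 21 days for inserts. Porous support, area, collagen, days in culture and access of cholate therefore differed, or may have differed, together and cannot be told apart.

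A porous support lets an epithelial sheet take up nutrients and signals from below as well as above, and intestinal cells on such supports form an apical brush border and a basolateral face. Enterocytes absorb lipid, pack it into chylomicrons with the microsomal triglyceride transfer protein, and move bile acids from the lumen to the blood through an apical uptake carrier and a basolateral exporter. Caco-2 cells also make many plasma proteins typical of liver, and bile acids at millimolar levels act on membranes and can start stress and immediate early gene programmes.

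The cells carried the markers of an intestinal epithelium on all 4 arrays. VIL1, CDH1, EPCAM, KRT8, KRT18 and CDH17 lay between 11.39 and 12.99. All 10 epithelial markers were above the floor, while PTPRC and CD3E of leukocytes, DCN of fibroblasts, and VWF and CDH5 of endothelium were under it on every array. CD14, COL1A1, COL1A2, PDGFRA and PECAM1 were above the floor, and of these PECAM1 was 1.62-fold higher on Transwell in cholate (5.58 on the plate, 6.27 on Transwell). The mean over the PECAM1 probe sets was 0.28, against 0.70 for the brightest one. Of the wider marker lists above the floor, 0 of 6 fibroblast genes, 1 of 5 leukocyte genes (CD68, lower) and 1 of 2 endothelial genes (PECAM1) were at least 1.5-fold apart, and their part in the results below was not tested. In bulk RNA, fewer cells of a type and less RNA per cell cannot be told apart.

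In cholate, 537 probe sets were at least 1.5-fold higher on Transwell (3.94% of 13613) and 509 were at least 1.5-fold lower (3.74%). Counted as 1 probe set a gene, 518 genes were higher (4.02% of 12900) and 484 lower (3.75%). Median centring of the arrays gave 679 higher and 421 lower, which raised the higher share of the calls from 51.3% to 61.7%. Most probe sets were close on both supports, as 92.3% lay within 1.5-fold and the middle of the distribution, from the 25th to the 75th percentile, ran from -0.16 to 0.21. Differences of 2-fold or more were seen in 77 higher and 106 lower probe sets, and differences of 4-fold or more in 7 higher and 3 lower. At the 1.5-fold limit, ASCL2 (0.59) and CAPN2 (-0.59) lay just inside, and DPH2 (0.58) and YPEL2 (-0.58) just outside. These counts describe 2 arrays and not the conditions. Of the higher probe sets, 29 were under the floor on the plate in cholate, and 20 of the lower were under it on Transwell. Of 50 genes with several member probe sets and at least 1 of them 1.5-fold apart, 43 had all probe sets on the same side of 0, and 0 had probe sets 1.5-fold apart in opposite directions. By biotype, 4.0% of 12840 protein-coding probe sets were higher and 3.58% lower, and over 4 equal bins of level the calls were least frequent in the dimmest bin (2.94% higher, 3.11% lower) and in the brightest (3.11% and 2.97%).

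**Figure D1:**
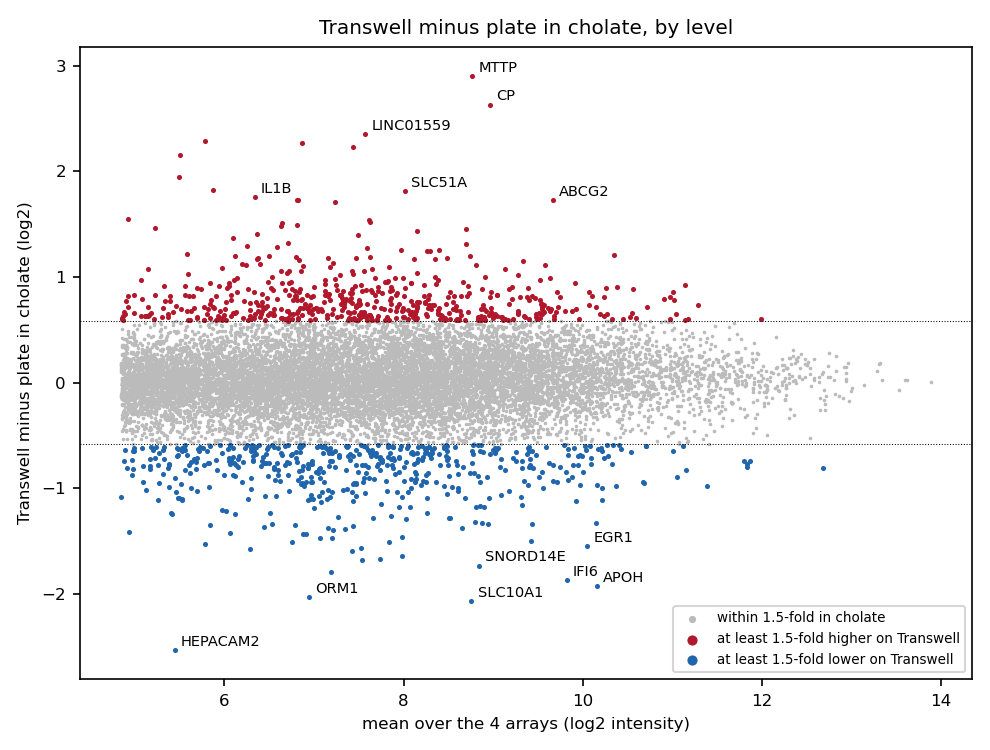
Mean log2 intensity over 4 arrays (horizontal axis) against the log2 difference Transwell minus plate in cholate (vertical axis), 1 point per probe set, for all 13613 members. Most points lie near 0 at every level, and MTTP (2.90) and HEPACAM2 (-2.53) lie at the ends.

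The vehicle arrays give a second pair of cultures on the same supports, with no array in common with the cholate pair. In vehicle, 260 probe sets were at least 1.5-fold higher on Transwell (1.91%) and 426 lower (3.13%). More probe sets were thus past the limit in the cholate pair in both directions, and that gap was not tested. Of the 537 higher in cholate, 514 (95.7%) were above 0 in vehicle and 156 were also at least 1.5-fold higher, which is 29.1% of the cholate set and 156 of the 260 in the vehicle set. Of the 509 lower in cholate, 468 (91.9%) were below 0 in vehicle and 247 were also at least 1.5-fold lower, which is 48.5% of the cholate set and 58.0% of the vehicle set. By comparison, 7209 of all 13613 members were above 0 in vehicle and 6394 below. The median of the higher set was 0.73 in cholate and 0.44 in vehicle, and that of the lower set -0.77 and -0.58. Within a support, the higher set had a median cholate minus vehicle difference of -0.30 on the plate and 0.03 on Transwell, and the lower set 0.13 and -0.05. These within-support medians use the cholate arrays that picked the sets and are not independent of them. Of the higher set, 77 lay within 0.2 of 0 in vehicle, and of the lower set 61 did. Across probe sets the differences in both pairs correlated at r = 0.70 and rho = 0.63, a description over 13613 probe sets that share the same 4 arrays.

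**Figure D2:**
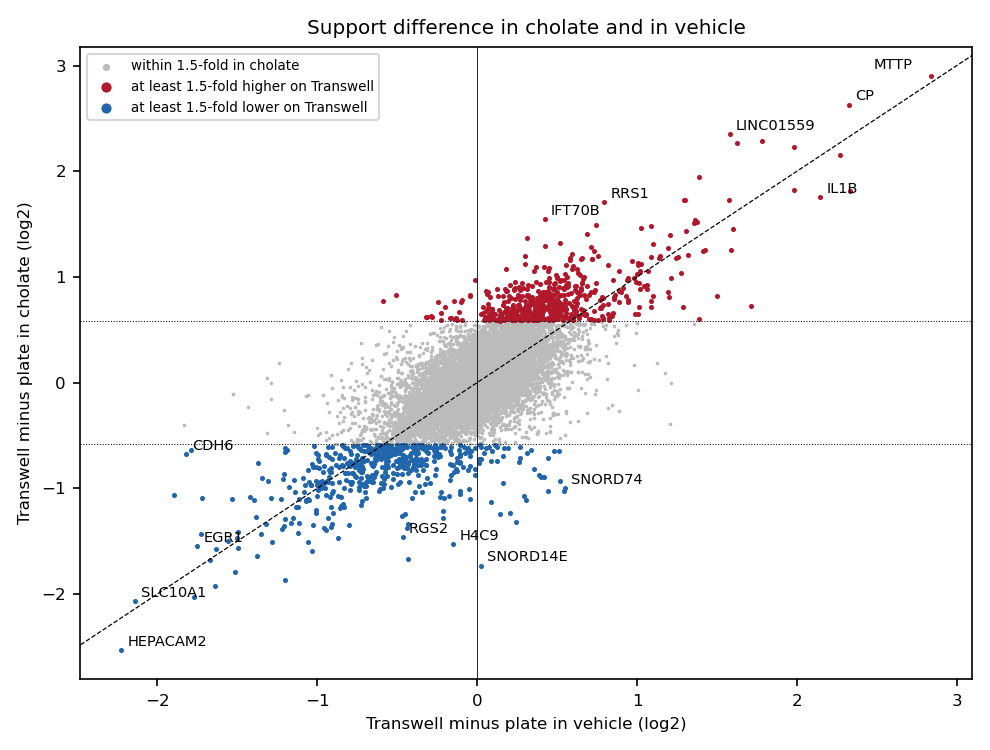
Log2 difference Transwell minus plate in vehicle (horizontal axis) against the same in cholate (vertical axis), 1 point per probe set. MTTP (2.84 and 2.90) lies far out on both axes, and SNORD14E (0.02 and -1.73) lies near 0 in vehicle and far below it in cholate.

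The 15 genes most above their plate level and the 15 most below it are a mixed set of transport, plasma protein, stress and small RNA genes, and the vehicle arrays showed the direction of nearly all of them. All 15 highest were above 0 in vehicle, and 14 were at least 1.5-fold higher there. Of the 15 lowest, 14 were below 0 in vehicle, and 12 were at least 1.5-fold lower. An additive limma model of support and treatment over the 4 arrays gave the support effect of the 15 highest genes a standard error (SE) between 0.09 and 0.30, and of the 15 lowest between 0.09 and 0.46. With only 1 residual degree of freedom, no probe set of 19978 passed a limma adjusted p of 0.05 and the lowest was 0.0858, while 2421 probe sets higher on Transwell and 2098 lower had an unadjusted p under 0.05. Letting limma's prior follow the level of expression gave 105 higher and 188 lower instead. The fit draws on the vehicle arrays too, and its SE says nothing about how cultures vary.

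**Figure D3:**
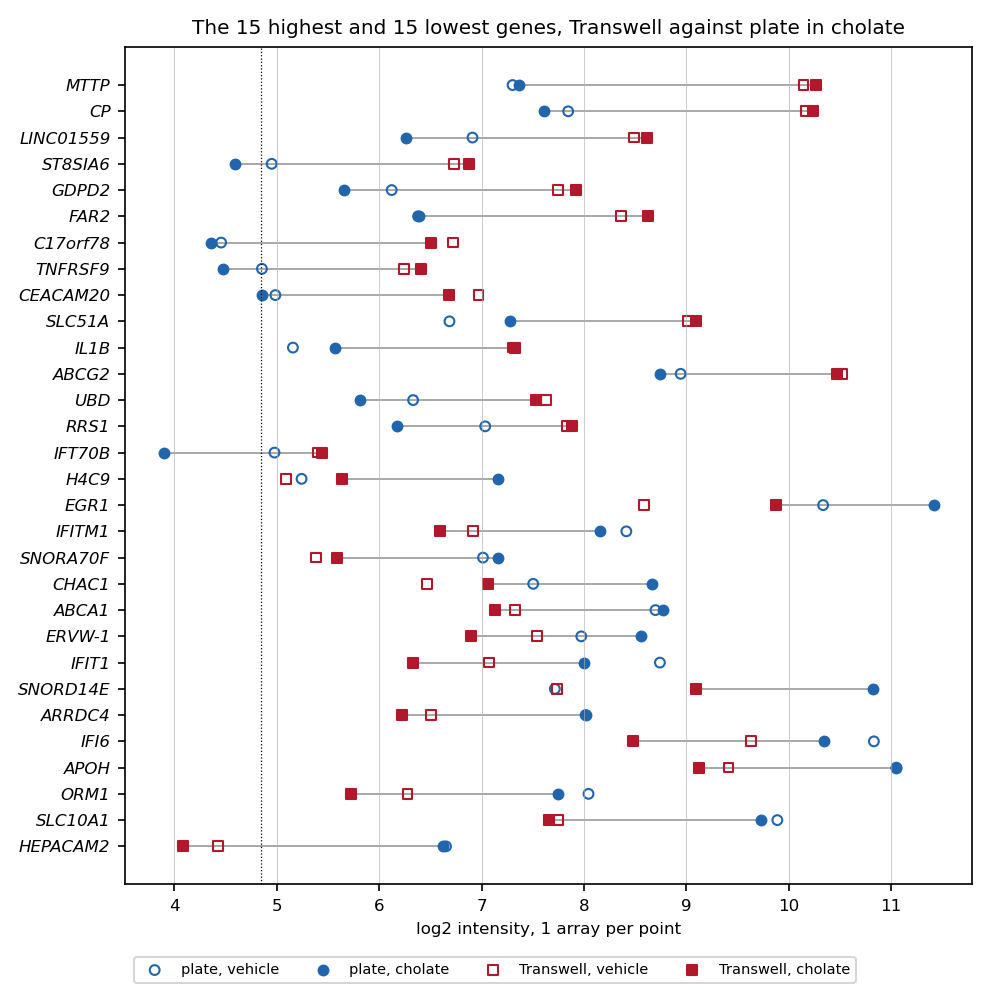
The 15 highest and 15 lowest genes by Transwell minus plate in cholate, in order of the difference. The horizontal axis is log2 intensity, each point 1 array (circles plate, squares Transwell, filled cholate, open vehicle), and the dotted line is the floor of 4.84. For MTTP the squares lie at 10.14 and 10.27 and the circles at 7.30 and 7.36.

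MTTP, the transfer protein that loads lipid onto apolipoprotein B, had the widest difference, 7.48-fold. It read 7.30 on the plate in vehicle, 7.36 on the plate in cholate, 10.14 on Transwell in vehicle and 10.27 on Transwell in cholate. Both Transwell arrays were higher than both plate arrays. FABP2, the intestinal fatty acid binding protein of the enterocyte cytosol, read 4.71 on the plate and 6.17 on Transwell in cholate, a difference of 1.46, with both plate arrays under the floor. APOA4, a chylomicron apolipoprotein, was 0.78 higher. DGAT2, which makes triglyceride, differed by -1.08 and APOA1 by -0.80. Of the 21 chylomicron and lipid absorption genes above the floor, 3 were higher and 3 lower (14.3% each, beside 4.02% and 3.75% of all genes). The median over all 22 measured was 0.09, beside 0.01 over all genes measured.

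Bile acid carriers went in opposite directions. SLC51A, the alpha subunit of the basolateral bile acid exporter, read 6.69 on the plate in vehicle, 7.28 on the plate in cholate, 9.02 on Transwell in vehicle and 9.09 on Transwell in cholate. Wherever 4 values follow each other below, they are in that order. Its difference in cholate was 1.81, and in vehicle 2.33. Its partner subunit SLC51B stood at -0.10 in cholate. SLC10A1, the sodium-dependent uptake carrier of hepatocytes, read 9.89, 9.72, 7.75 and 7.66, so its difference was -2.06, and both Transwell arrays were lower than both plate arrays. SLC10A2, the ileal uptake carrier, was listed at 4.59 and 5.17 in cholate, a difference of 0.58 that starts under the floor. ABCC3, another basolateral exporter, was at -0.74. Of 16 genes of bile acid transport, binding and the nuclear receptor FXR above the floor, 1 was higher (6.25%) and 2 lower (12.5%). The shares of all genes were 4.02% and 3.75%.

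Other transporters and brush border proteins went both ways. ABCG2, a drug and urate efflux pump, read 8.94, 8.74, 10.52 and 10.47, a 3.31-fold difference in cholate. SLC7A9 and SLC3A1, the light and heavy chain of a cystine and basic amino acid carrier, differed by 1.45 and 1.28. In the other direction, the glutamate carrier SLC1A1 stood at -0.69 and SLC1A4, a neutral amino acid carrier, at -1.03. Of 22 amino acid and peptide transporters above the floor, 2 were higher (9.09%) and 3 lower (13.6%), beside 4.02% and 3.75% of all genes. Their median over all measured was -0.12. Of 24 ion and water transport genes, 2 were higher (8.33%), CA12 at 0.99 and GUCY2C at 0.94. The 4 lower (16.7%) included the carbonic anhydrase CA2 at -0.77 and the aquaporin AQP3 at -0.71. MUC17, a membrane mucin of the brush border, differed by 1.54, and CEACAM20, an apical membrane protein, by 1.82. XPNPEP2, an aminopeptidase, differed by 1.06. Of 15 microvillus genes above the floor, 0 were higher, where 5 were in vehicle, and 1 (6.67%), CDHR5, was lower at -0.63. The myosin MYO7B stood at 0.55 in cholate and 0.67 in vehicle. Of the 10 brush border peptidases and phosphatases above the floor, 2 were higher (20.0%) and 1 lower (10.0%).

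Junction genes are given beside the shares of all genes, 4.02% higher and 3.75% lower. Of 24 tight junction genes above the floor, 2 were higher (8.33%) and 0 lower. CLDN2, a claudin that forms cation pores, read 5.21, 5.28, 6.12 and 6.17, a difference of 0.90, and CLDN12 differed by 0.62, or 0.57 and under the limit with cyclic loess. The median of all measured was -0.06, and in vehicle -0.15. DSC2, a desmosomal cadherin, was 0.73 higher, and it alone of 17 adherens junction and desmosome genes (5.88%) was at least 1.5-fold apart.

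Plasma proteins of liver type split. CP, the copper oxidase ceruloplasmin, read 7.84, 7.60, 10.17 and 10.24, a 6.20-fold difference. ORM1, an acute phase glycoprotein, read 8.04, 7.75, 6.28 and 5.72, a difference of -2.03. APOH, a phospholipid-binding apolipoprotein, read 11.05, 11.05, 9.41 and 9.13, a difference of -1.92, with Transwell arrays lower than plate arrays in both treatments. Of 27 list members above the floor, 3 were higher (11.1%), CP, C3 and SERPINC1, and 10 were lower (37.0%). Of all genes, 4.02% were higher and 3.75% lower. The list median over all measured was -0.23. In vehicle it was -0.48, with 3 higher and 13 lower. ITIH2, a hyaluronan-binding inhibitor chain, differed by -1.50 and RBP4, which carries retinol, by -1.33. HEPACAM2, a cell adhesion molecule of the immunoglobulin family, had the lowest value of all at -2.53, and both Transwell values were under the floor (6.65, 6.62, 4.42 and 4.09), so its fold may be understated.

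**Figure D4:**
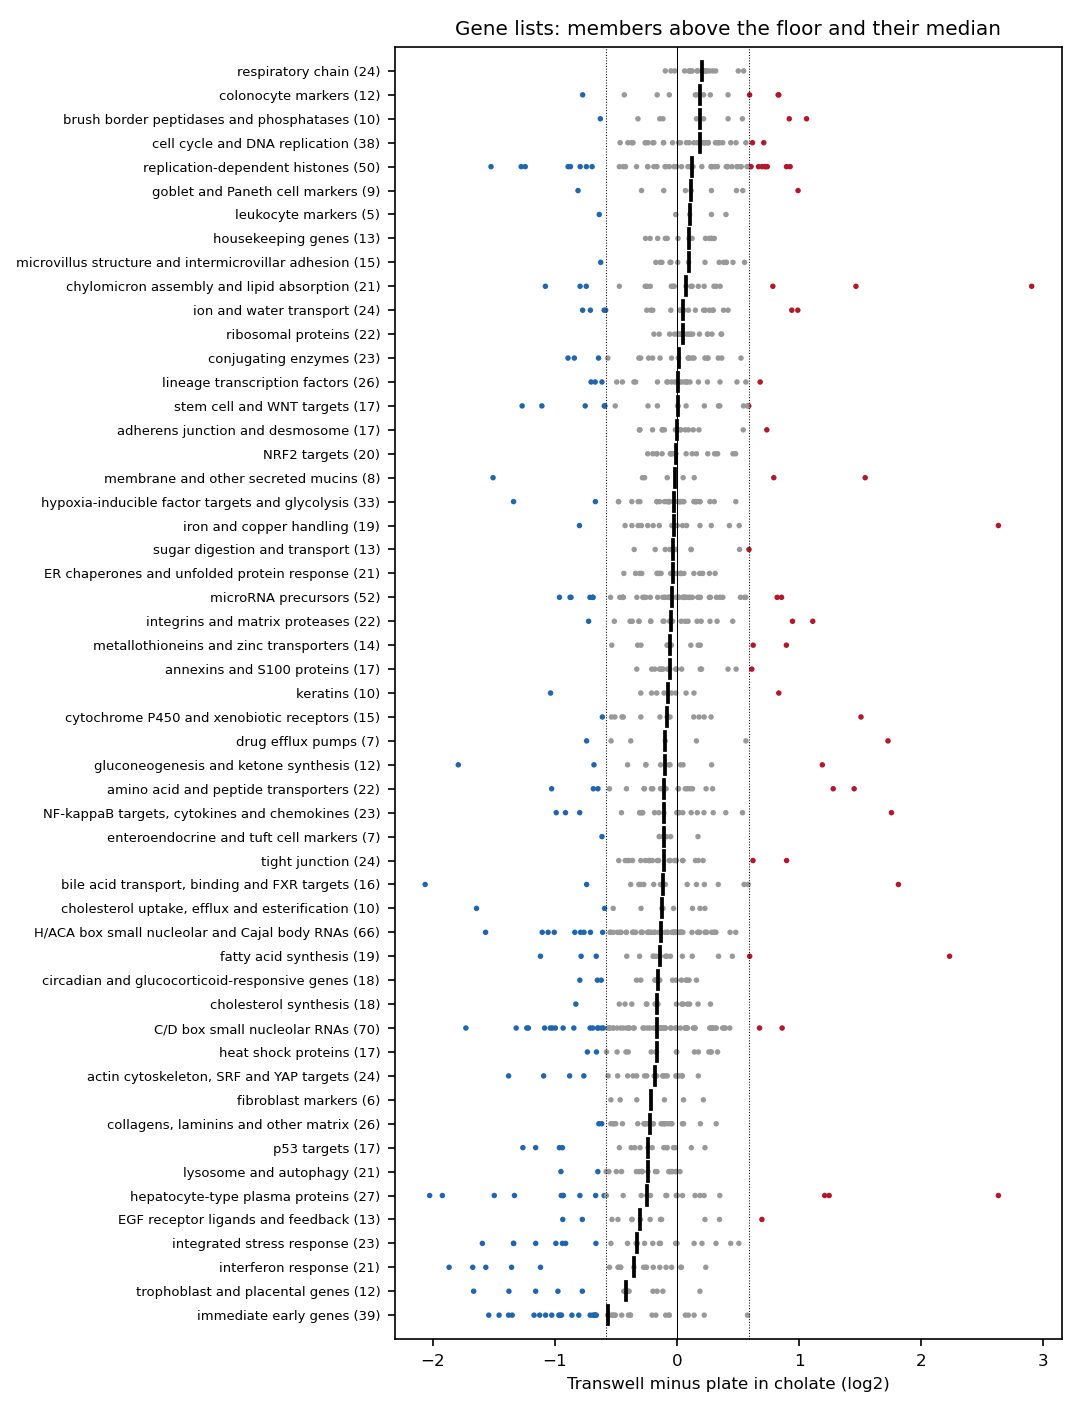
Log2 difference Transwell minus plate in cholate for gene lists, each point 1 gene above the floor, with the list median. Gene numbers stand in brackets, dotted lines mark 1.5-fold, and lists are ordered by median. The immediate early genes lie mostly under 0 and the respiratory chain genes mostly above it.

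Many immediate early genes, which respond quickly to a stimulus, were lower on Transwell. Of 39 above the floor, 19 were at least 1.5-fold lower and 0 higher, against 3.75% of all genes lower, and the median of all 40 measured was -0.56. In vehicle, 11 were lower and the median was -0.32. EGR1, a zinc finger transcription factor, read 10.34, 11.41, 8.59 and 9.87. Both Transwell values lay under both plate values, and its difference in cholate was -1.54. RGS2, a regulator of G protein signalling, read 7.51, 9.41, 7.05 and 7.95, so it was higher in cholate on both supports and by more on the plate, where cholate minus vehicle was 1.89 against 0.90 on Transwell. CCN1, a matrix-associated growth regulator, differed by -1.38, and ATF3, a stress-induced transcription factor, by -1.35. FOSB, a partner of JUN in the AP-1 factor, differed by -1.13 and by 0.09 in vehicle, and JUN differed by -1.03 and by -0.11. MYC was the member with the highest value, 0.58, just under the 1.5-fold limit.

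Part of the integrated stress response list was lower. Of 23 above the floor, 8 were lower (34.8%, beside 3.75% of all genes), 0 were higher and 15 were within 1.5-fold, 5 of the 23 being above 0, with a median of -0.30 over all 24 measured (vehicle -0.17). CHAC1, an enzyme that degrades glutathione, read 7.50, 8.66, 6.47 and 7.06, a difference of -1.60. DDIT4, an inhibitor of the growth kinase mTORC1, read 9.28, 10.47, 8.85 and 9.13, and its difference of -1.34 was -0.43 in vehicle. DDIT3, the transcription factor CHOP, differed by -1.34 and by -1.32 in vehicle. GDF15, a stress-secreted factor of the TGF-beta family that also counts in other lists, differed by -1.16. Asparagine synthetase (ASNS) and PSAT1, amino acid synthesis genes of this list, stood at 0.44 and 0.51, so the list was not uniform. Of 21 ER chaperone genes, 0 were at least 1.5-fold apart in either direction. Of 17 heat shock genes 2 were lower (11.8%), HSPA6 at -0.74 and DNAJB1 at -0.66.

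**Figure D5:**
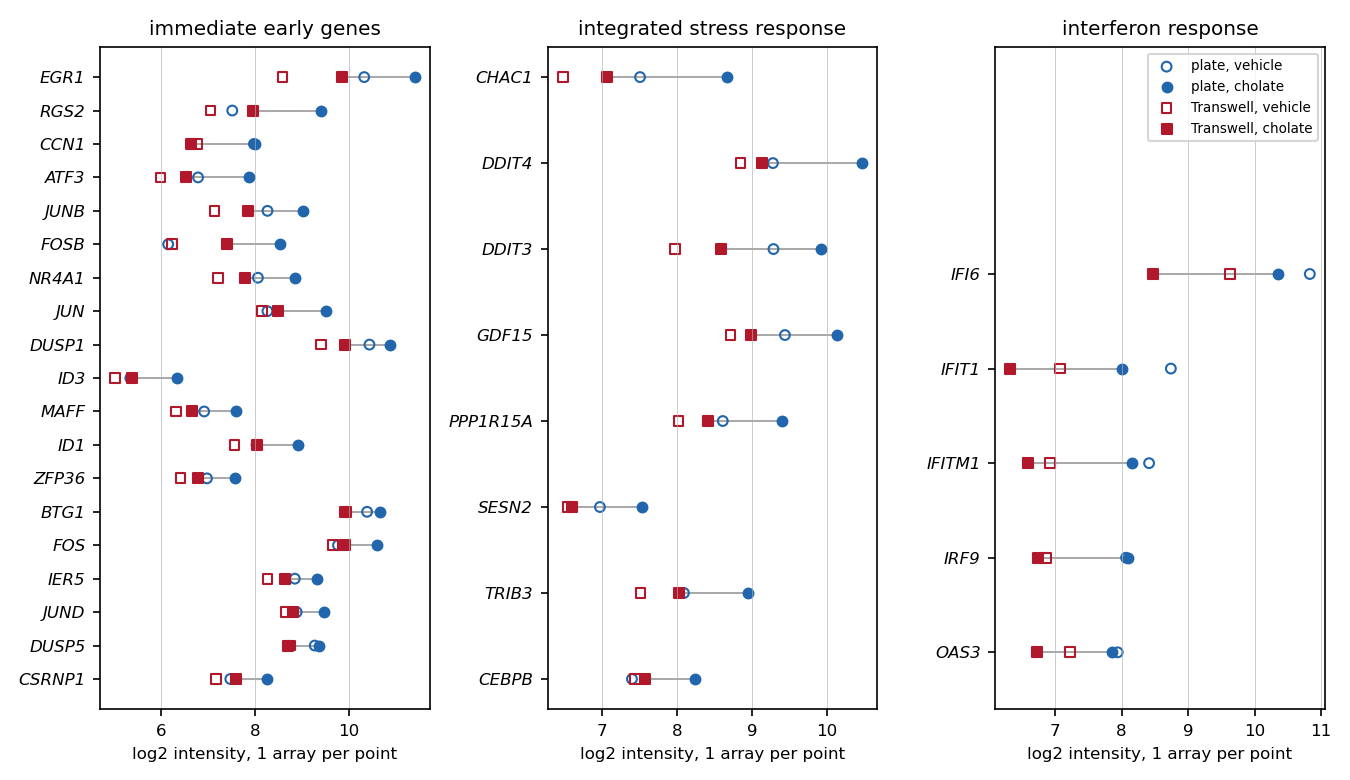
Log2 intensity on each array (circles plate, squares Transwell, filled cholate, open vehicle) for the immediate early, integrated stress response and interferon genes that were at least 1.5-fold lower on Transwell in cholate. EGR1 reads 11.41 on the plate and 9.87 on Transwell in cholate.

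Interferon-stimulated genes were mostly below 0, and some were past the limit. Of 21 above the floor, 18 were below 0 and 3 above. At 1.5-fold, 5 were lower (23.8%, beside 3.75% of all genes) and 0 higher. The median of all 26 measured was -0.25, with -0.37 and 9 lower in vehicle. IFI6, an antiviral membrane protein, read 10.83, 10.35, 9.63 and 8.48, a difference of -1.87. IFIT1, which binds foreign RNA caps, read 8.74, 8.00, 7.07 and 6.32, a difference of -1.67 in both treatments. IFITM1, which restricts viral entry, differed by -1.57, and IRF9, part of the factor that drives these genes, by -1.36. The antigen presentation genes TAP1 and PSMB9 of the same list stood at 0.03. IL1B, an inflammatory cytokine, was in contrast higher, at 5.16, 5.57, 7.30 and 7.33, a difference of 1.76.

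Promoters of some of these genes are shown to set their sequence beside the values. MTTP and HEPACAM2 stand for the ends of the comparison, ORM1 for the lowest plasma protein, and IFIT1 and CHAC1, chosen after their values were seen, for the interferon and stress response lists. Each is 250 bases before to 50 after the annotated start, from RefSeq GRCh38.p14, 5′ to 3′ on the gene's strand, and capitals mark motif matches. The intervals are chr4:99563880-99564179 (MTTP, plus strand), chr7:93232149-93232448 (HEPACAM2, minus), chr9:114322848-114323147 (ORM1, plus), chr10:89392373-89392672 (IFIT1, plus) and chr15:40953221-40953520 (CHAC1, plus).
MTTP: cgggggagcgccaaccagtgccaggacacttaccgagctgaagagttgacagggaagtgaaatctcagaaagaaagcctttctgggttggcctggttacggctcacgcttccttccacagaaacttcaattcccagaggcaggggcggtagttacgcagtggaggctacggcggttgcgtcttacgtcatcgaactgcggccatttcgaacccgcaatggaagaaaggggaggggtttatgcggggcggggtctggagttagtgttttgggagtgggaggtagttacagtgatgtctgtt
HEPACAM2: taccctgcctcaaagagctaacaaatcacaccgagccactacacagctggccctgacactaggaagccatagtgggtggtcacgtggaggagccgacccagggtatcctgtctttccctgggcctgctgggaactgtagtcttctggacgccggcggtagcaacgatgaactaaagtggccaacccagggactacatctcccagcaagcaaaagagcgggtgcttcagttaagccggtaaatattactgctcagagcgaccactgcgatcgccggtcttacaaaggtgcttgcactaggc
ORM1: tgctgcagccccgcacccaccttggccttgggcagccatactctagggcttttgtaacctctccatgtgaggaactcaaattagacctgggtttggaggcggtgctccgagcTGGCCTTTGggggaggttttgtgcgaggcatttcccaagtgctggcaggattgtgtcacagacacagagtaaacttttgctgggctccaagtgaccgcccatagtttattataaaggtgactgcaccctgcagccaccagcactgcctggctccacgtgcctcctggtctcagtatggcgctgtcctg
IFIT1: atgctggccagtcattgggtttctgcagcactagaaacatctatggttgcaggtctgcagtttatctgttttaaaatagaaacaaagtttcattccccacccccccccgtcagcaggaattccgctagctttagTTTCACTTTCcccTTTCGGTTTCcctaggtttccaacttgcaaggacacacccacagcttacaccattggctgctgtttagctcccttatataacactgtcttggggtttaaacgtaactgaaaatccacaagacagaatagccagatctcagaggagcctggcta
CHAC1: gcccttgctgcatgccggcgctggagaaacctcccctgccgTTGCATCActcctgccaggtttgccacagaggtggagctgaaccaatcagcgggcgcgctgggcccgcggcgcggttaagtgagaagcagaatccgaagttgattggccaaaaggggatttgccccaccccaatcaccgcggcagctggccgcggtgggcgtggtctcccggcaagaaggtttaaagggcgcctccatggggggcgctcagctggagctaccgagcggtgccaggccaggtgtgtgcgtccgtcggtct

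Motifs were searched on both strands: GTTAAT (HNF1), CAAAGNNCA (HNF4), TTTATNG (CDX), the interferon response element ISRE (GAAA, any 2 bases, GAAA), TTGCATCA (C/EBP-ATF element) and the CArG box. ORM1 held 1 HNF4 match at positions -138 to -130 from the start. IFIT1 held 2 ISRE matches, at -116 to -107 and -103 to -94. CHAC1 held 1 C/EBP-ATF match at -209 to -202. MTTP and HEPACAM2 held no match to these letters in this window, and any other annotated start of these genes was not searched. The ISRE letters were present in 12 of 17 interferon list genes with a promoter (70.6%). They were in 4.52% of the lower genes and in 3.65% of all 27305 genes, each taken with 1 promoter. The HNF4 letters were in 7.11% of the higher genes, 5.93% of the lower and 5.26% of all. C/EBP-ATF letters were in only 2 of 21 integrated stress response genes with a promoter (9.52%), in 1.69% of the lower genes and in 0.923% of all. A match describes letters, not binding.

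Small nucleolar RNAs were mostly lower on Transwell in cholate and mostly higher in vehicle. These RNAs guide chemical modification of ribosomal RNA. Of 126 small nucleolar RNA probe sets, 27 were lower (21.4%) and 2 higher (1.59%), beside 3.74% and 3.94% of all 13613. The median was -0.18, where the vehicle median was 0.19 with 1 lower. Among C/D box RNAs, 16 of 70 were lower (22.9%), and among H/ACA box RNAs 9 of 66 (13.6%). SNORD14E read 7.71, 10.82, 7.74 and 9.09, so it was higher in cholate on both supports, by 3.10 on the plate and by 1.35 on Transwell, and its difference between supports was -1.73. SNORD50B was at -1.32 and SNORD52 at -1.23, with vehicle differences of 0.24 and 0.21. SNORA70F, in contrast, was at -1.57 in cholate and -1.63 in vehicle. The array labelled total RNA without removal of ribosomal RNA, and probe sets of small RNAs can also take up host gene transcripts, which was not tested.

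Of 52 microRNA precursors above the floor, 6 were lower (11.5%) and 2 higher (3.85%), beside 3.75% and 4.02% of all genes, and 49 were in the RefSeq table. The array reports a probe set at the precursor and not a mature arm. MIR21, whose mature strand is abundant in many epithelia, differed by -0.96 and by -0.999 in vehicle. MIR191 and MIR425, neighbours in 1 cluster, differed by -0.87 and -0.88, with vehicle differences of -0.01 and -0.16. MIR15A was the higher one, at 0.86 against 0.07. The sequences below are shown for these 4, with the seed, bases 2 to 8, in capitals. No seed is shared among the 6 arms shown, and the other arms of MIR21 and MIR425 were not compared.
miR-21-5p: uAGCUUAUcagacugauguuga
miR-191-5p: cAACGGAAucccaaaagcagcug
miR-191-3p: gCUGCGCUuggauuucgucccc
miR-425-3p: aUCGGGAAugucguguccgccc
miR-15a-5p: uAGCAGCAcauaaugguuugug
miR-15a-3p: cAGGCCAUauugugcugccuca

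Histone genes were split between directions, with 9 higher and 8 lower of 50. Both directions were more frequent than among all genes, of which 4.02% were higher and 3.75% lower. The list was matched by symbol and takes in a pseudogene, H2BC19P, at -0.03. H2AC21 was 0.93 higher and H4C9 stood at -1.52, with a vehicle difference of -0.15. Histone genes are near-identical copies whose probe sets can share transcripts, so single members are uncertain. Of 38 cell cycle genes, 2 were higher, CCND2 (0.71) and CCNB1 (0.62), and 0 lower, which is 5.26% higher beside 4.02% of all genes. CCNB1 was under the limit with quantile normalization (0.57) and cyclic loess (0.57). The cell cycle median was 0.18 against -0.02 in vehicle. Of 24 respiratory chain genes none was 1.5-fold apart, 21 were above 0, and the median was 0.20. Of 21 lysosome and autophagy genes 20 were below 0 and 2 were at least 1.5-fold lower (9.52%), MAP1LC3B (-0.95) and the protease CTSL (-0.65).

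Genes of cytoskeletal tension, growth arrest and signalling were more often lower than higher, where 4.02% of all genes were higher and 3.75% lower. Of 24 actin, SRF and YAP genes above the floor, 4 were lower (16.7%) and 0 higher (vehicle 6 lower). Among the lower were CCN2, a matrix-associated growth factor, at -1.09 and ANKRD1, a nuclear ankyrin protein, at -0.76 against -1.37 in vehicle. Of 17 p53 targets, 4 were lower (23.5%), including PLK2 at -1.26 and GADD45A at -0.96. EGFR, the epidermal growth factor receptor, differed by -0.78 and its ligand HBEGF by -0.94, while SPRED1, an inhibitor downstream of the receptor, stood at 0.69. That list had 1 higher (7.69%) and 2 lower (15.4%) of 13. KRT23 read 9.18, 7.73, 8.10 and 6.69, a difference of -1.04, with lower values in cholate on both supports. Of 23 genes of NF-kappaB targets, cytokines and chemokines, 1 was higher (4.35%, IL1B) and 3 lower (13.0%). The lower ones were NFKBIZ at -0.99, IL18 at -0.91 and NFKBIA at -0.80.

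Single metabolic genes stood out in both directions. G6PC1, which releases free glucose, read 6.18, 6.19, 7.43 and 7.38, a difference of 1.19, while PCK1, an early enzyme of the same pathway, stood at -0.68. FAR2, which reduces fatty acyl groups to alcohols, read 6.38, 6.39, 8.36 and 8.62, a difference of 2.23. ELOVL7, a fatty acid elongase, was at -1.12. ARRDC4, an arrestin-type protein, read 8.02, 8.02, 6.50 and 6.22, a difference of -1.79. INSIG1, which restrains cholesterol synthesis, differed by -0.83. It was the 1 gene of 18 cholesterol synthesis genes past the limit (5.56%, beside 3.75% of all genes lower). The glutathione transferases GSTA1 and GSTA2 differed by -0.84 and -0.89, and these near-identical copies may share probes. Of 20 NRF2 targets, 0 were 1.5-fold apart. MUC15, a membrane mucin, read 9.09, 7.88, 8.03 and 6.37, a difference of -1.51, opposite to MUC17.

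Markers of intestinal and stem cell identity also went both ways. The list counts below stand beside shares of 4.02% higher and 3.75% lower among all genes. CDX2, a transcription factor of intestinal identity, read 8.68, 8.92, 9.68 and 9.48, a difference of 0.56 in cholate that was under the 1.5-fold limit (0.60, past it, with median centring). KRT20, a keratin of differentiated colonocytes, differed by 0.83, and CA2 of the same list by -0.77. Of 12 colonocyte markers above the floor, 3 were higher and 1 lower, and 8 were above 0. Of these, CEACAM1 (0.59), was under the limit with quantile normalization (0.56) and cyclic loess (0.54). LGR5, a receptor of WNT-driven stem cells, differed by -1.27 and PROM1, a membrane protein of progenitor and apical membranes, by -1.11. Of 17 stem cell and WNT genes above the floor, 1 was higher (5.88%) and 5 lower (29.4%). Among the lower, DKK1 (-0.60) was at -0.56 and inside the limit with median centring. The placental fusion gene ERVW-1 read 7.97, 8.56, 7.54 and 6.89, a difference of -1.67, and ERVFRD-1 was at -1.38. Of 12 trophoblast genes, 5 were lower (41.7%) and 0 higher, with 6 lower and 0 higher in vehicle. ABCA1, a cholesterol efflux pump, differed by -1.64, and CYP1A1, a target of the aryl hydrocarbon receptor, by 1.51. RRS1, needed for ribosome assembly, read 7.03, 6.17, 7.83 and 7.88, a difference of 1.71 that was 0.79 in vehicle.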

How the data were processed

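Per the submitters' processing notes, the authors used RMA, which corrects background, normalizes between arrays and summarises probes, to make the deposited log2 intensities (33297 probe sets on 4 arrays). The sources used here do not give its software or version. Gene symbols came from the platform annotation, checked by gene number against RefSeq GRCh38.p14, and a gene with several probe sets took the one with the highest mean. Differences and counts were computed in Python 3.11.15 with a 1.5-fold limit (0.585 log2). The support effect was fitted with limma 3.58.1 in R 4.3.3 (lmFit, eBayes, additive model, 1 residual degree of freedom, 2-sided, Benjamini-Hochberg). The code was also run on simulated data with planted shifts larger than any difference reported here. That run does not show how the fit behaves at smaller differences.

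Genes named are the 15 highest and 15 lowest, up to 4 members per list, the 5 most positive and 5 most negative against vehicle, and the markers; others in the text were chosen after their values were seen. Members and lists were chosen with earlier results of these data known. List counts use members above the floor, and list medians use all measured. Alternatives were other floors, normalizations, fold limits and probe set rules.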

Additional observations from a re-analysis of the deposited data

Results flagged for a closer look

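Over all members, 64 probe sets at least 1.5-fold apart in cholate had the opposite sign in vehicle, 23 of the higher and 41 of the lower. Among the genes named in the text there were 10, and the difference between the pairs was not tested. SNORD14E was at -1.73 in cholate and 0.02 in vehicle. SNORD50B was at -1.32 and 0.24, SNORD52 at -1.23 and 0.21, SNORD75 at -1.02 and 0.45, and SNORD74 at -0.997 and 0.55. LOC731157 was at -1.02 and 0.54, and H1-1 at -1.24 and 0.14. ANXA1, a membrane-binding annexin, was at 0.61 and -0.16, and FAM230B at 0.83 and -0.50. FOSB was at -1.13 and 0.09.

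Outside the genes described, 580 of 5198 probe sets above the floor with no listed gene were at least 1.5-fold lower on Transwell in cholate (11.2%), and 206 were higher (3.96%). In vehicle, 220 were lower (4.23%) and 274 higher (5.27%). What these probe sets measure was not tested.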

How the results depend on the processing

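The 161 genes of the naming rule each moved by less than their SE under median centring, quantile normalization and cyclic loess. That SE rests on 1 residual degree of freedom, and median centring moves all differences by the same amount, so staying within it says little. Some of the 161 genes lay close to the 1.5-fold limit. Median centring took 7 of them under it and CDX2 past it (0.60), quantile normalization took 5 under it and cyclic loess 4. With a 2-fold limit the counts were 77 higher and 106 lower. Over all probe sets above the floor, with or without a listed gene, 1126 were lower and 791 higher. limma with a trend gave 105 higher and 188 lower (lowest adjusted p 0.0212), where the fit without it gave 0 and 0. Cyclic loess gave 481 higher and 563 lower. Scaling turned the sign of list medians that were within 0.05 of 0 only, in the 3 scalings run. Keeping only members above the floor turned brush border peptidases from -0.05 to 0.19, goblet and Paneth cell markers from -0.05 to 0.11, leukocyte markers from -0.07 to 0.10 and endothelial markers from -0.07 to 0.32, and adherens junction genes stayed within 0.05 of 0 while changing sign. The mean over its probe sets moved UGT2A3 to -0.53 and PECAM1 to 0.28, out of 7 genes. The limma fit of support with treatment as a term averages the support difference over both treatments and is not the cholate pair alone. With 1 array a side, nothing here separates the supports from the spread between cultures, and values under the floor have little order.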

Other observations

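A list of ribosome assembly and RNA polymerase I genes was made after the highest genes were seen, so its count supports nothing. All 72 measured were above the floor, with 24 past 1.5-fold on the higher side (33.3%, beside 4.02% of all genes) and 0 on the lower, and the rest within it. Of the 72, 68 were above 0, where 53.2% of all members were, and the median was 0.44. In vehicle the median was 0.23 and 4 were higher. RRS1 was at 1.71, URB2, a ribosome assembly factor, at 1.18, POLR1B, a subunit of RNA polymerase I, at 1.17, and LTV1, which helps mature the small subunit, at 1.07.

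Of 48 mitochondrial and tRNA-modifying enzymes, chosen the same way, 7 were higher (14.6%) and 0 lower, with a median of 0.25 against 0.12 in vehicle. MARS2, a mitochondrial methionyl-tRNA synthetase, was at 1.39 and 1.21. Of 364 zinc finger genes named ZNF above the floor, 22 were higher (6.04%) and 6 lower (1.65%), beside 4.02% and 3.75% of all genes. That list was narrowed after its values were seen, to leave out antisense transcripts that share the prefix.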
